A study of Mus musculus with 10 samples.

Results

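The genes that build and mark the oocyte were followed by RNA-seq in mouse stem cells and germ cells: 6 genes of transcription, Figla, Nobox, Lhx8, Sohlh1, Sohlh2 and Taf4b, and 4 genes of oocyte products, Gdf9, Zp1, Zp2 and Zp3. They were chosen by name, and all 10 were found among the 36066 genes of the expression table. The 10 libraries were 2 replicates each of 5 groups on the C57BL6 background. ESC was a female embryonic stem cell line from fertilized embryos. pESC was a stem cell line from parthenogenetic embryos, which arise from activated oocytes without a sperm and so carry maternal chromosomes alone. Both kinds of cell also carried a GFP transgene under the β-actin promoter and were grown on feeder fibroblasts. ESC-PGCLC and pESC-PGCLC were primordial germ cell-like cells made from these cells, through epiblast-like cells and then 4 days with BMP4 at 500 ng/ml, SCF at 100 ng/ml, EGF at 50 ng/ml and LIF, and sorted by the surface antigens SSEA1 and CD61. PGC was primordial germ cells, which the study sorted with these antigens, or with SSEA1 alone, from female embryonic gonads. The study isolated such cells at different embryonic stages, and the labels of these libraries give no embryonic day. The study describes its replicates as biological, but nothing states that they came from separate cultures or litters, so the p-values measure the spread between these libraries alone.

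In the fetal ovary, germ cells enter meiosis, break out of their nests and become primordial follicles, each an oocyte in a layer of somatic cells. Figla encodes a basic helix-loop-helix factor that is needed for this step and activates the zona pellucida genes through E-boxes. Sohlh1 and Sohlh2 are germ cell helix-loop-helix factors that act upstream of Lhx8, a LIM-homeobox factor, and Nobox, a homeobox factor. Taf4b is a gonad-enriched subunit of TFIID, the complex that places RNA polymerase II at promoters. Gdf9 is a growth factor that the oocyte secretes to its granulosa cells, and Zp1, Zp2 and Zp3 are glycoproteins of the zona pellucida, the coat of the oocyte. Gdf9 and the zona proteins belong to growing oocytes, a stage later than that of primordial germ cells.

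The levels are TPM, in which the reads of a gene are divided by its length and every library is brought to 1 common total, so they can be compared between genes. When TPM was turned back into reads with the exon lengths, between 95.1% and 95.4% of non-zero values per library came within 0.05 of a whole number, as did those of all 10 genes. The recovered depth was 6779838 reads (ESC-PGCLC replicate 2) to 18572901 reads (ESC replicate 2). A gene was taken as detected in a group with at least 3 reads in both libraries, and intervals and floors made from reads cover counting error alone. Groups were compared with limma on log2(TPM + 1) over 27259 genes, with Benjamini-Hochberg adjustment over all of them, and a call needed both an adjusted p under 0.05 and at least a 2-fold difference. This scale understates the change of genes near 0. An exact permutation test of 2 libraries against 2 cannot go below p = 0.333, so the calls rest on the spread pooled over the 5 groups.

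Marker genes were read first as a check of the labels. The summed level of 3 later germ cell markers, Ddx4, Dazl and Mael, was 15.3 to 23.1 TPM in the 4 stem cell libraries and 1419 to 2593 TPM in the 6 germ cell libraries. Over 4 stem cell markers the sum was 588 to 967 TPM in stem cells and 124 to 208 TPM in germ cells. Sox2 of that list did not follow the sum, with 32.7 and 44.6 TPM in ESCs but 97.3 and 110 TPM in ESC-PGCLCs, where it was called higher, and with 23.9 and 29.7 TPM in pESC-PGCLCs and 83.4 and 75.1 TPM in PGCs. Over 5 early germ cell markers the sum was 383 to 900 TPM in stem cells and 3242 to 5755 TPM in germ cells, most of it Dppa3, with 5628 of the 5705 TPM in ESC-PGCLC replicate 1. Prdm14 of this list was not called in either differentiation, with 17.2 and 18.1 TPM in ESCs and 16.7 and 18.0 TPM in ESC-PGCLCs. Pou5f1, the core pluripotency factor that germ cells also keep, went against the germ cell label in ESC-PGCLCs, with 0.374 TPM in replicate 1 and 0 TPM in replicate 2, against 1.63 to 3.14 TPM in the pESC-PGCLC and PGC libraries and 7.49 to 23.5 TPM in the stem cells. Nanog had 403 to 674 TPM in the same stem cell libraries, and the study describes both genes as highly expressed there. How well the table measures Pou5f1 was not tested. Genes of other cell types also differed between the germ cell groups. The summed level of 6 gonadal somatic markers was 17.2 and 20.9 TPM in ESC-PGCLCs, 38.5 and 44.1 TPM in pESC-PGCLCs, 75.2 and 96.7 TPM in PGCs, and 7.06 to 9.21 TPM in stem cells (Amh of that list was not analysed here). The 6 blood markers summed to 437 and 504 TPM in ESC-PGCLCs, 2230 and 2762 TPM in pESC-PGCLCs, 1703 and 1889 TPM in PGCs, and at most 3.95 TPM in stem cells. Fibroblast markers summed to 0.184 to 0.369 TPM in stem cells and 3.31 to 8.56 TPM in germ cells, and Col3a1 of these was called higher in both differentiations and in PGCs against stem cells. The sources describe PGCLCs as cultured cells sorted by surface antigens, and their libraries nonetheless held globin and gonadal somatic transcripts, the origin of which was not tested, so each PGCLC level below is that of a library with these transcripts in it.

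**Figure D1:**
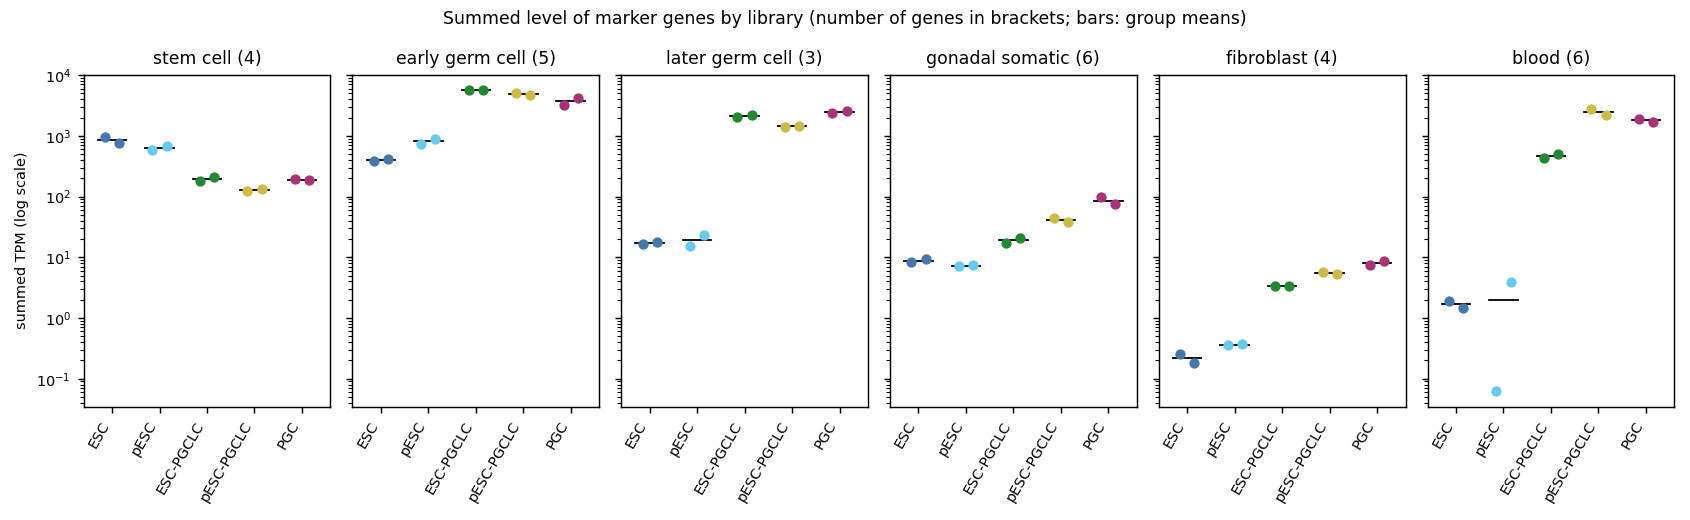
Summed TPM of 6 marker lists in each library, on a log axis, with the 5 groups on the horizontal axis, a point for each library and a bar for the mean of a group. Gonadal somatic and blood markers are lowest in stem cells, and within the germ cell groups lowest in ESC-PGCLCs.

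Promoter sequences are shown for the 4 members that were called between pESCs and pESC-PGCLCs and have an entry in the RefSeq promoter table (GRCm38.p6), since FIGLA, SOHLH1 and SOHLH2 are factors of a family that binds the E-box, CANNTG. Each run ends at or shortly before the transcription start, its last bases left out where an annotated exon begins, and E-boxes are in capitals. Sequences read 5′ to 3′ on the strand of the gene, from chr6:86016941-86017190 (plus strand) for Figla, chr3:55181794-55182027 (plus) for Sohlh2, chr2:25847249-25847498 (minus) for Sohlh1 and chr5:135979855-135980098 (plus) for Zp3. The Figla window begins inside the gene as GENCODE M21 draws it, in the first intron of a longer transcript.
Figla: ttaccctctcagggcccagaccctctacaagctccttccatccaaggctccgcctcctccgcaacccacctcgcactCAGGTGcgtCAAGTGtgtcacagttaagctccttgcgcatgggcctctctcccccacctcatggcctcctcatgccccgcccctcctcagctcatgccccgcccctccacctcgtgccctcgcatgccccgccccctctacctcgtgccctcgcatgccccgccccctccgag
Sohlh2: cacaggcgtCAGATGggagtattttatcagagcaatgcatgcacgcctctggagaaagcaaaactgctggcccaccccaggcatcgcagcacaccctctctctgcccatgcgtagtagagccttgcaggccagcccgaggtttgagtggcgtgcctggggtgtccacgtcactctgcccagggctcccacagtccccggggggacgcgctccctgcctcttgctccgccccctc
Sohlh1: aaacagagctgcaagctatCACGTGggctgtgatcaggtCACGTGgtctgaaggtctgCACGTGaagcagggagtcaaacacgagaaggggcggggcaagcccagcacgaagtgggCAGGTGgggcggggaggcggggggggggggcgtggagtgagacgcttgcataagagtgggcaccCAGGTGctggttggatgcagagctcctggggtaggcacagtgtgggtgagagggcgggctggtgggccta
Zp3: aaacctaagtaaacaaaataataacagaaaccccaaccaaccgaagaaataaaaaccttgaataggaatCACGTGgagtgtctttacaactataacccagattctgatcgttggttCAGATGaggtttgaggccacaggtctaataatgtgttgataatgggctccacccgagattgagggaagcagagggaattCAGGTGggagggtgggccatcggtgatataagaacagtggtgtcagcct
The Sohlh1 window holds 5 E-boxes, beginning at positions -231, -211, -192, -134 and -70 from the start, and the first 3 are the palindrome CACGTG. Zp3 has 3, at -181, -134 and -55, of which the first is CACGTG. Figla has 2, at -173 and -164, and Sohlh2 has 1, at -241. Among the other promoters, Nobox has 2 and Lhx8 none. CANNTG reads the same on both strands and was found in 66.2% of 32851 promoter windows of 250 bases, CACGTG, a subset of it, in 6.02%. CAGGTG, another subset searched on both strands, is held by Sohlh1 (2), Nobox (2), Figla (1) and Zp3 (1), and by 17.2% of all windows. The homeobox motifs TAATTG and TAATTA, found in 7.17% and 4.84% of all windows on either strand, were in none of the 6. CG dinucleotides numbered 14 in Figla and in Sohlh2, 11 in Sohlh1 and in Nobox, 5 in Zp3 and 4 in Lhx8, against a median of 6. These matches describe the letters alone.

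By the rule of 3 reads, 3 of the 10 genes were detected in ESCs and the same 3 in pESCs, namely Sohlh2, Taf4b and Zp3. ESC-PGCLCs had 5, namely Figla, Nobox, Lhx8, Sohlh2 and Taf4b. In pESC-PGCLCs 8 were detected, all but Zp1 and Zp2, and in PGCs 6, namely Figla, Lhx8, Sohlh1, Sohlh2, Taf4b and Gdf9. ESC-PGCLC libraries were the shallowest, with 7697694 and 6779838 reads against 14807827 and 16704568 in pESC-PGCLCs, so the same level gives fewer reads there. With a limit of 0.1 TPM in both libraries in place of reads, the counts were 3, 3, 5, 8 and 7 in the same order. Zp1 and Zp2 did not reach 0.1 TPM in 2 libraries and were not tested, so the tests cover 8 of the 10.

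**Figure D2:**
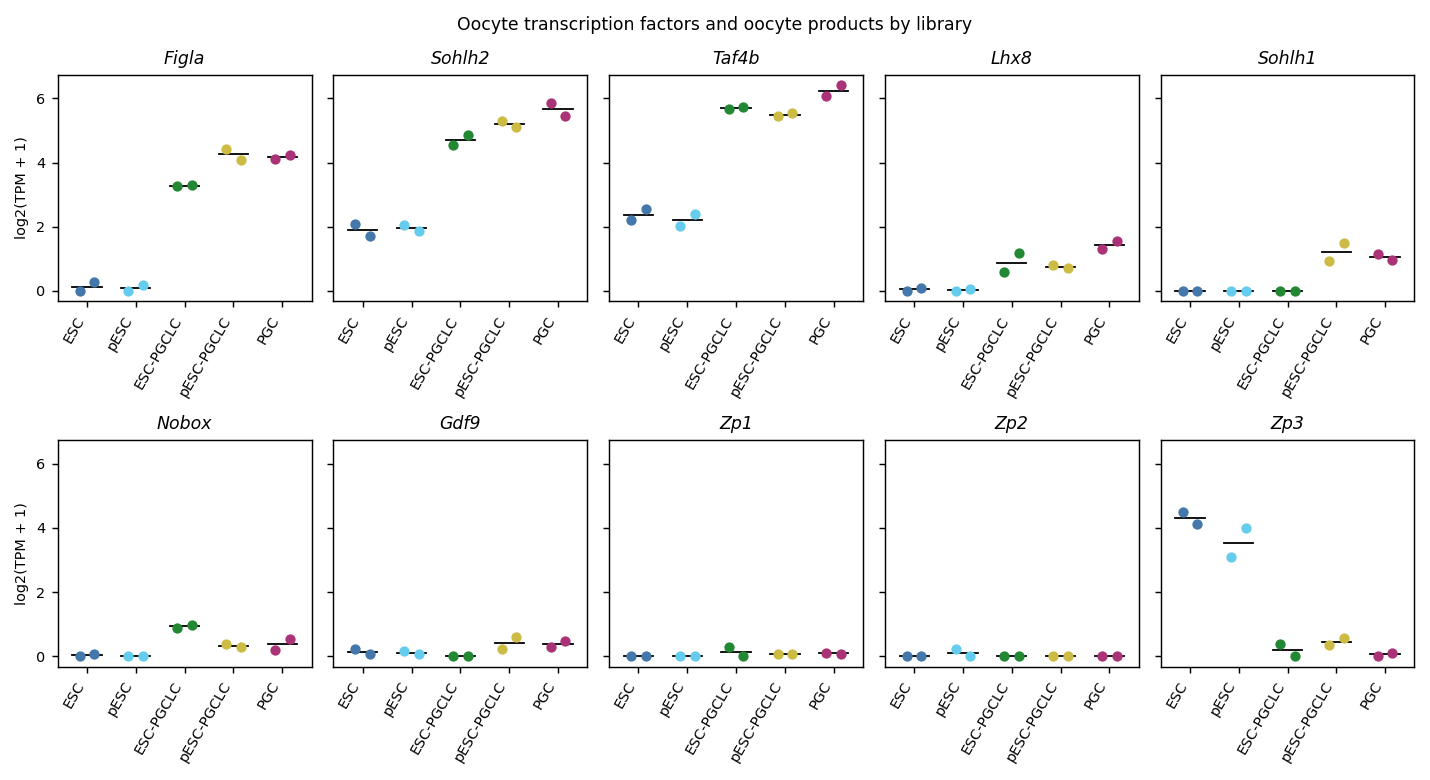
Level of each of the 10 genes as log2(TPM + 1) on 1 common vertical axis, with the 5 groups on the horizontal axis, a point for each library and a bar for the mean of a group. Figla, Sohlh2 and Taf4b are higher in the 6 germ cell libraries than in the 4 stem cell libraries, Zp3 is lower, and the other 6 stay under 2 on this scale.

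Figla, Sohlh2 and Taf4b rose in both kinds of PGCLC and were the members with the highest levels in germ cells. Figla (chr6:86016171-86020996, GRCm38, plus strand, 836 nt of exons) had 0 and 0.201 TPM in ESCs and 0 and 0.138 TPM in pESCs, which are 0 to 2 reads a library and below detection. It reached 8.55 and 8.82 TPM in ESC-PGCLCs, 20.5 and 16.0 TPM in pESC-PGCLCs and 16.3 and 17.7 TPM in PGCs. No germ cell library overlapped a stem cell library, and both ESC-PGCLC libraries lay below the other 4 germ cell libraries. Figla rose by 3.14 on the log2 scale from ESCs to ESC-PGCLCs (SE 0.184, adjusted p = 9.17e-06, limma) and by 4.16 from pESCs to pESC-PGCLCs (SE 0.184, adjusted p = 5.35e-06).

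Sohlh2 (chr3:55182028-55209957, plus strand, 2364 nt of exons) was already present in stem cells, at 3.26 and 2.31 TPM in ESCs and 3.18 and 2.68 TPM in pESCs. Its level was 22.2 and 28.0 TPM in ESC-PGCLCs, 38.3 and 33.4 TPM in pESC-PGCLCs and 57.4 and 43.0 TPM in PGCs. The 3 germ cell groups did not overlap, in that order, yet no pair of them was called for Sohlh2, as the comparisons below give. Sohlh2 rose by 2.79 on the log2 scale in ESC-PGCLCs against ESCs (SE 0.210, adjusted p = 2.77e-05, limma) and by 3.23 in pESC-PGCLCs against pESCs (SE 0.210, adjusted p = 2.24e-05).

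Taf4b, on chromosome 18 with 5149 nt of exons, had the highest level of the 10 genes in germ cells. Its annotated gene overlaps AC133172.1, and no source states that counting used strand, so reads of the overlap cannot be assigned. Stem cells held 3.60 and 4.85 TPM (ESC) and 3.09 and 4.28 TPM (pESC). Germ cells held 49.4 and 51.8 TPM (ESC-PGCLC), 42.8 and 45.5 TPM (pESC-PGCLC) and 66.1 and 84.8 TPM (PGC). Here pESC-PGCLCs were the lowest germ cell group and PGCs the highest, without overlap. Taf4b rose by 3.31 in ESC-PGCLCs (SE 0.195, adjusted p = 9.31e-06, limma) and by 3.28 in pESC-PGCLCs (SE 0.195, adjusted p = 1.57e-05), both on the log2 scale. In bulk RNA, fewer cells that express a gene cannot be told apart from less RNA in each.

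Lhx8, Nobox and Sohlh1, the other 3 factors, were at 2 TPM or less in every library. Lhx8 (chr3:154306294-154330659, minus strand, 2532 nt of exons) had 0 and 0.0664 TPM in ESCs and 0 and 0.0456 TPM in pESCs. In germ cells its values were 0.498 and 1.26 TPM (6 and 13 reads) in ESC-PGCLCs, 0.742 and 0.630 TPM (16 and 15 reads) in pESC-PGCLCs, and 1.49 and 1.97 TPM (24 and 45 reads) in PGCs. The pESC-PGCLC values lay between those of the ESC-PGCLC libraries, and PGCs lay above both. On differentiation Lhx8 passed the adjusted p but not the fold, at 0.83 on the log2 scale in ESC-PGCLCs (SE 0.203, adjusted p = 0.0105, limma) and 0.72 in pESC-PGCLCs (SE 0.203, adjusted p = 0.0209). In ratios of pooled reads, ESC-PGCLCs had 22.7 times the ESC level (95% interval 5.48 to 201, exact) and pESC-PGCLCs 30.2 times the pESC level (5.03 to 1230), each against 2 reads or 1.

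Nobox (chr6:43303674-43309554, minus strand, 2012 nt of exons) had 1 read in the 4 stem cell libraries together. ESC-PGCLCs held 0.836 and 0.977 TPM, 8 reads in each library, while pESC-PGCLCs held 0.292 and 0.211 TPM (5 and 4 reads) and PGCs 0.156 and 0.440 TPM (2 and 8 reads). It was the 1 factor with its highest level in ESC-PGCLCs, above all other libraries. The change from ESCs to ESC-PGCLCs was 0.90 on the log2 scale, under 2-fold (SE 0.125, adjusted p = 6.04e-04, limma), and that from pESCs to pESC-PGCLCs was 0.32 (SE 0.125, adjusted p = 0.0693).

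Sohlh1 (chr2:25842995-25847248, minus strand, 1289 nt of exons) had 0 reads in the ESC, pESC and ESC-PGCLC libraries, 6 in all. In ESC-PGCLCs 3 reads would have been 0.489 and 0.572 TPM, so a level up to that is not excluded by the depth. It reached 0.911 and 1.81 TPM in pESC-PGCLCs (10 and 22 reads) and 1.22 and 0.945 TPM in PGCs (10 and 11 reads). Every pESC-PGCLC and PGC library was thus above the floor of both ESC-PGCLC libraries. Sohlh1 rose by 1.21 on the log2 scale from pESCs to pESC-PGCLCs (SE 0.179, adjusted p = 9.53e-04, limma). Against a floor of 3 reads a library, pESC-PGCLCs were at least 5.11-fold higher than pESCs. The rise kept an adjusted p under 0.05 without pESC-PGCLC replicate 2, the library with 22 reads, but fell under 2-fold, at 0.93. From ESCs to ESC-PGCLCs no change could be measured.

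**Figure D3:**
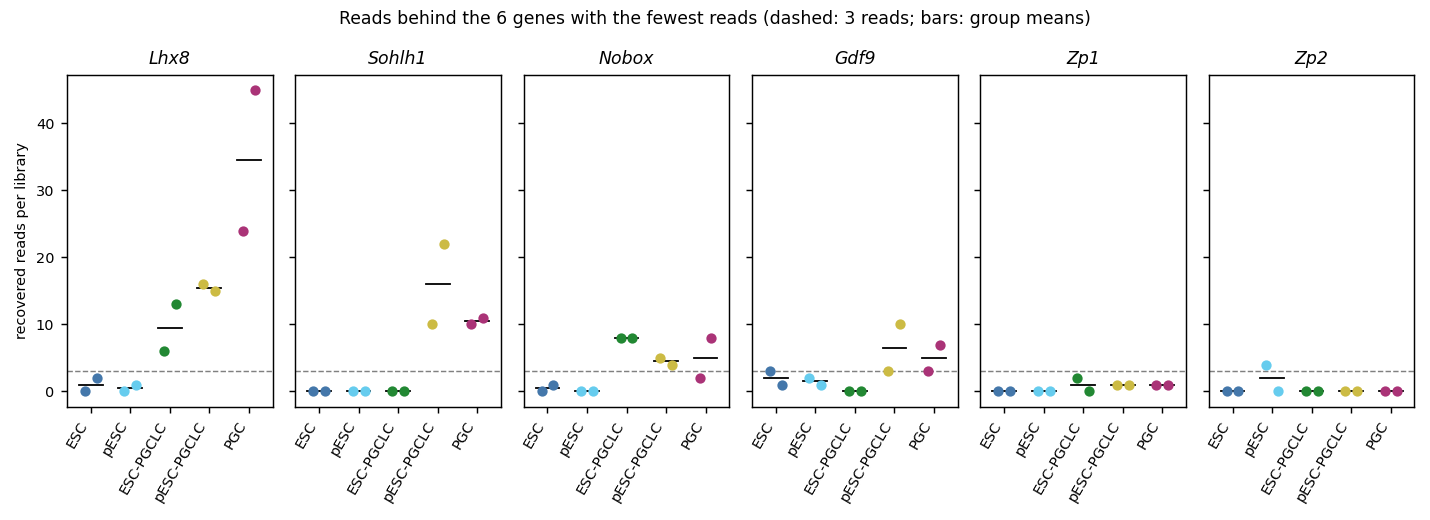
Recovered reads per library (vertical axis) for the 6 genes with the fewest reads, with the 5 groups on the horizontal axis, a point for each library, a bar for the mean of a group and a dashed line at 3 reads. Lhx8 reaches 45 reads in a PGC library and Sohlh1 22 in a pESC-PGCLC library, whereas Zp1 never exceeds 2 reads.

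Of the oocyte products, Zp3 alone was well measured, and it was highest in stem cells. Zp3 (chr5:135980099-135988624, plus strand, 1323 nt of exons) had 21.6 and 16.5 TPM in ESCs (263 and 259 reads) and 7.57 and 14.8 TPM in pESCs (88 and 170 reads). In germ cells it had 0.318 and 0 TPM in ESC-PGCLCs, 0.266 and 0.482 TPM in pESC-PGCLCs, and 0 and 0.0837 TPM in PGCs, which are at most 6 reads a library. The lowest stem cell library was thus far above the highest germ cell library. Zp3 fell by 4.11 on the log2 scale in ESC-PGCLCs (SE 0.309, adjusted p = 2.74e-05, limma) and by 3.09 in pESC-PGCLCs (SE 0.309, adjusted p = 1.41e-04). In pooled reads, ESC-PGCLCs had 0.00916 times the ESC level (95% interval 0.00111 to 0.0333, exact) and pESC-PGCLCs 0.0340 times the pESC level (0.0154 to 0.0655).

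The gene-level table does not show which part of Zp3 the stem cell reads cover, and the source of these reads was not tested. None of the 100-base stretches of the annotated transcripts of the 10 genes occurs, in the same orientation, in an annotated transcript of another gene. The genes next to Zp3, chosen after its values were seen, were low in stem cells. Dtx2 on the same strand, 6176 nt downstream, had 0.230 to 0.421 TPM in the 4 stem cell libraries, and Ssc4d on the other strand, 5568 nt upstream, had 0.349 to 1.27 TPM.

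The remaining products were at or below detection. Gdf9 (chr11:53431023-53437904, plus strand) had 3 and 1 reads in ESCs, 2 and 1 in pESCs, none in ESC-PGCLCs, 3 and 10 in pESC-PGCLCs and 3 and 7 in PGCs. Its highest value was 0.523 TPM, in pESC-PGCLC replicate 2, and none of the comparisons called it. Zp1 (chr19:10914287-10920632, minus strand) had 1 read in each pESC-PGCLC and PGC library, 2 in ESC-PGCLC replicate 1 and none elsewhere. Zp2 (chr7:120126772-120145291, minus strand) had 4 reads in pESC replicate 1, which are 0.167 TPM, and 0 in the other 9 libraries. For Zp2, 3 reads would have been 0.0926 to 0.271 TPM, so a zona level like that of Zp3 in ESCs would have been seen in any library, and a level under 0.0926 TPM would not.

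The first question was how these genes changed as stem cells became PGCLCs. From ESCs to ESC-PGCLCs, 3 members rose (Figla, Taf4b, Sohlh2) and 1 fell (Zp3) of the 8 tested, where 15.3% of all genes tested were called higher and 14.5% lower. From pESCs to pESC-PGCLCs, 4 rose (Figla, Taf4b, Sohlh2, Sohlh1) and 1 fell (Zp3), where 20.8% of all genes were called higher and 6.8% lower. Blood markers were called higher for 5 of 6 in both comparisons, and gonadal somatic markers for 1 of 6 with ESCs and 4 of 6 with pESCs, and their part in the members' values was not tested. The median log2 change of the 8 was 0.87 and 0.97, against 0.05 and 0.22 over all genes. The filter took in Lhx8, Nobox and Sohlh1 through germ cell libraries alone and left out Zp1 and Zp2. The members' counts of calls and medians, here and below, therefore describe the genes tested and are not a test. All genes split into 5681 higher and 1854 lower in the second comparison, but into 2992 and 3415 once libraries were centred on the median of common genes. The rises of Figla, Taf4b and Sohlh2 and the fall of Zp3 were called under each of 18 other settings in both comparisons.

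**Figure D4:**
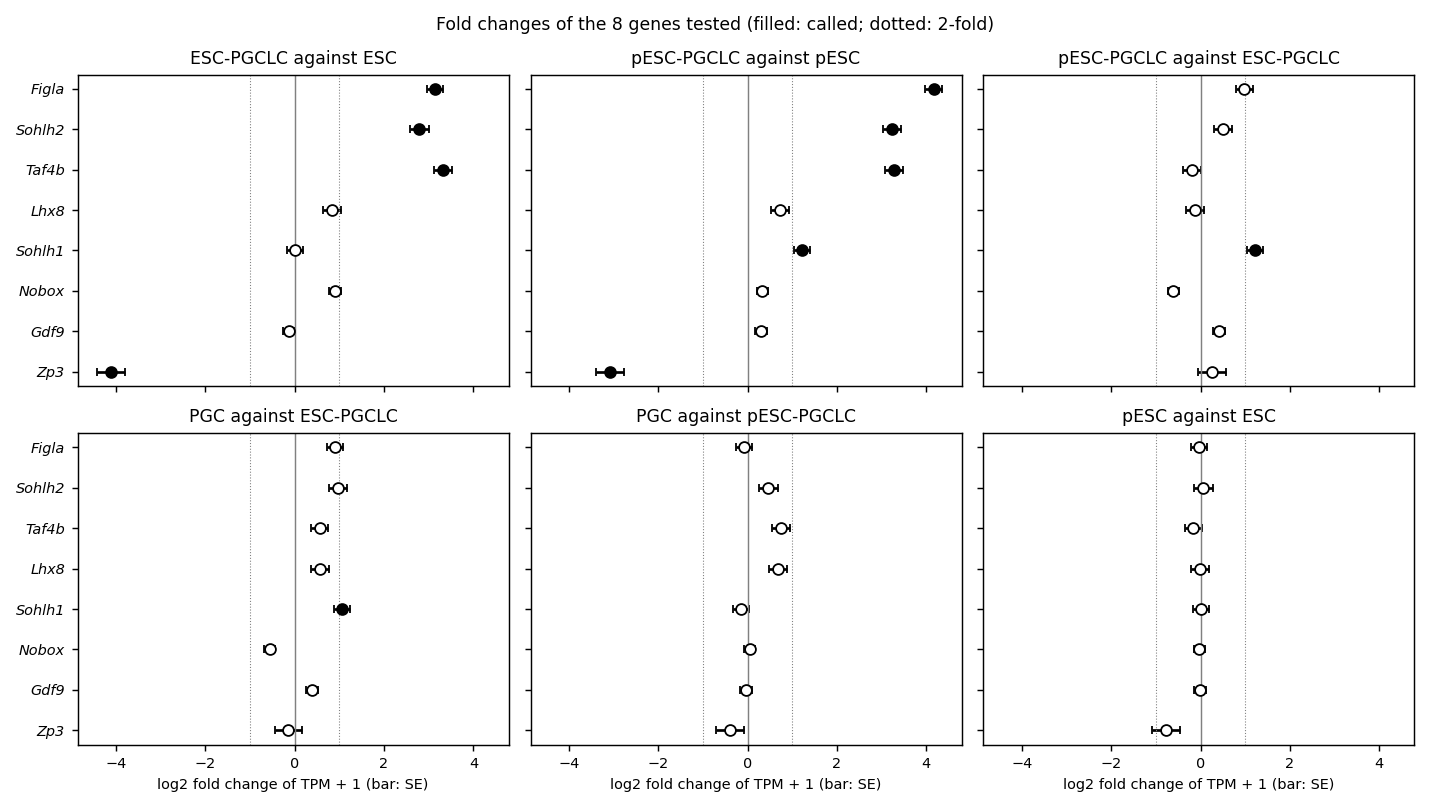
Log2 fold change of TPM + 1 (horizontal axis) with its SE for the 8 genes tested, in 6 comparisons, namely both differentiations, pESC-PGCLC against ESC-PGCLC, PGC against each kind of PGCLC, and pESC against ESC. Filled points were called at an adjusted p under 0.05 and at least 2-fold, and dotted lines mark 2-fold. Among these 6, the largest changes, upward for Figla, Sohlh2 and Taf4b and downward for Zp3, are those from stem cells to PGCLCs.

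Between the PGCLCs of both origins, Sohlh1 was the 1 member called. It was higher in pESC-PGCLCs by 1.21 on the log2 scale (SE 0.179, adjusted p = 0.00238, limma), at least 2.57-fold above the floor of ESC-PGCLCs, where 10.3% of all genes were called higher and 3.08% lower. This call was lost when the PGCLC libraries alone entered the fit (adjusted p = 0.0641), and without pESC-PGCLC replicate 2 the change was 0.93, under 2-fold. Figla was higher by 0.98 (SE 0.184, adjusted p = 0.00699), just under 2-fold, and 2.09 times as high in pooled reads scaled for depth (95% interval 1.59 to 2.79, exact). Nobox was lower by 0.61 on the log2 scale, also under 2-fold (SE 0.125, adjusted p = 0.0106). In pooled reads scaled for depth, it had 0.277 times the ESC-PGCLC level (0.108 to 0.666). Sohlh2 differed by 0.50 (adjusted p = 0.129), Taf4b by -0.19 (adjusted p = 0.544), Lhx8 by -0.13 (adjusted p = 0.722) and Gdf9 by 0.42 (adjusted p = 0.0612). The members' median was 0.34 and that of all genes 0.12, and all genes split into 2812 higher and 839 lower, or 1546 and 1437 after median centring.

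Markers of other cells moved with this comparison. Of the 6 gonadal somatic markers, 3 were called higher in pESC-PGCLCs (Gata4, Amhr2, Nr5a1), and of the 6 blood markers 5. None of the 6 gonadal markers was at 0 in any germ cell library, and Foxl2, a granulosa cell factor, had 1 read in each ESC-PGCLC library and 11 and 12 reads in pESC-PGCLCs. Their part in the Sohlh1, Figla and Nobox values was not tested.

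Whether the change on differentiation depended on origin was tested by the interaction. Sohlh1 had an interaction of 1.21 (SE 0.253, adjusted p = 0.0117, limma), which is the PGCLC difference itself, since the other 3 groups had 0 reads, and so adds nothing to it. Figla rose more on the pESC side, by 1.02 (SE 0.260, adjusted p = 0.0264). These were 2 of the 8 members, where 15.5% of all genes were called in this direction and 3.53% in the other. Most of the Figla value, 0.98 of 1.02, is the difference between the PGCLCs, since stem cells were near 0. The Figla call was lost under 9 of 18 other settings, with an adjusted p of 0.138 after quantile normalization, 0.160 after median centring and 0.567 with voom on recovered reads. Leaving out ESC replicate 2, pESC replicate 1, pESC-PGCLC replicate 1 or either ESC-PGCLC replicate also ended it. Nobox had -0.58 (SE 0.177, adjusted p = 0.0510), Zp3 1.03 (SE 0.437, adjusted p = 0.139), Sohlh2 0.44 (adjusted p = 0.347) and Taf4b -0.03 (adjusted p = 0.955). All genes split into 4236 and 961, or 1885 and 2000 after median centring and 2721 and 584 without ESC replicate 1. Gonadal somatic markers were called in the same direction for 3 of 6 and blood markers for 5 of 6, and their part was not tested.

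The other question was how PGCLCs stand to PGCs from the gonad. Against ESC-PGCLCs, PGCs had more Sohlh1, by 1.05 on the log2 scale (SE 0.179, adjusted p = 0.00504, limma) and at least 2.04-fold above the floor, where 12.0% of all genes were called higher and 1.88% lower. This call was lost with these groups alone in the fit (adjusted p = 0.0595, limma). That fit called 0 of the 27259 genes at all (3437 at an unadjusted p under 0.05 and at least a 2-fold difference). The Sohlh1 change was 0.82 after median centring, 0.76 after quantile normalization and 0.96 without PGC replicate 1, each under 2-fold. Sohlh2 was higher by 0.97 (SE 0.210, adjusted p = 0.0121) and Figla by 0.90 (SE 0.184, adjusted p = 0.00980), while Nobox was lower by 0.56 (SE 0.125, adjusted p = 0.0130), all under 2-fold. Taf4b differed by 0.56 (adjusted p = 0.0644) and Lhx8 by 0.56 (adjusted p = 0.0703). The members' median was 0.56 against 0.27 for all genes, which split into 3260 higher and 512 lower, or 782 and 1170 after centring. All 6 gonadal somatic markers and 5 of 6 blood markers were called higher in PGCs, and their part in these values was not tested.

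Against pESC-PGCLCs, limma called none of the members in PGCs, where 2.07% of all genes were called higher and 1.6% lower. At an unadjusted p under 0.05 there were 2, Taf4b at 0.75 (SE 0.195, adjusted p = 0.0537) and Lhx8 at 0.69 (SE 0.203, adjusted p = 0.0713), and voom called 0. In pooled reads PGCs had 1.74 times the Taf4b level (95% interval 1.67 to 1.81) and 2.59 times the Lhx8 level (1.67 to 4.09), with counting error alone in these intervals. Figla stood at 0.945 times (0.788 to 1.13), Sohlh1 at 0.763 times (0.418 to 1.37) and Sohlh2 at 1.37 times (1.28 to 1.47). The all-gene split was 564 higher and 436 lower, or 226 and 649 after centring, and it moved with single libraries. Both numbers shrank without either pESC-PGCLC replicate, PGC replicate 1 or either ESC replicate, and grew without PGC replicate 2. With these groups alone limma called 0 (1233 genes at an unadjusted p under 0.05 and at least a 2-fold difference). Of the gonadal somatic markers 2 of 6 were called higher in PGCs, and of the blood markers 0 of 6. PGCs are in both of these comparisons, so their values are not independent of each other.

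Against ESCs and pESCs together, PGCs had 5 members higher and 1 lower of the 8 tested, where 25.3% of all genes were called higher and 8.06% lower. Of the 5, Lhx8 and Sohlh1 passed the filter through germ cell libraries alone, so this count is not a test of the set. Figla was higher by 4.06 (SE 0.159, adjusted p = 1.26e-06, limma), Taf4b by 3.95, Sohlh2 by 3.72, Lhx8 by 1.40 (SE 0.176, adjusted p = 2.49e-04) and Sohlh1 by 1.05 (SE 0.155, adjusted p = 5.95e-04). Zp3 was lower, at -3.87 (SE 0.267, adjusted p = 1.21e-05). The Sohlh1 change was under 2-fold at 0.82 after median centring, 0.76 after quantile normalization and 0.96 without PGC replicate 1. All genes had a median of 0.28 and split into 6883 higher and 2197 lower, or 3834 and 3877 after centring. All 6 gonadal somatic markers and 5 of 6 blood markers were called higher too, and their part was not tested.

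Between the stem cell lines themselves limma called none of the 8, where 0.165% of all genes were called higher in pESCs and 0.616% lower. In that comparison 1 member passed at an unadjusted p under 0.05, Zp3, with -0.77 on the log2 scale (SE 0.309, adjusted p = 0.243), and voom called 0. Zp3 became a call without pESC replicate 2, at -1.21 (adjusted p = 0.0471), which leaves pESC replicate 1, the lower value of the pair. Sohlh2 differed by 0.06 (SE 0.210) and Taf4b by -0.16 (SE 0.195), and the sign of the latter turned to 0.14 after median centring. All genes split into 45 higher and 168 lower, or 123 and 53 after centring, and every library left out moved this by over 1.5 times. Among the fits with a library left out, total calls were fewest without ESC replicate 1 and most without pESC replicate 2. With these groups alone limma called 0 (627 genes at an unadjusted p under 0.05 and at least a 2-fold difference).

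Genes that work beside these factors were read from 2 lists. Of 8 transcription partners, 7 were read (Tbpl2 was not analysed here), and 4 of 7 were called higher in each kind of PGCLC and none lower, where 15.3% of all genes were called higher in ESC-PGCLCs and 20.8% in pESC-PGCLCs. On the pESC side 3 of these calls were lost under other settings, Taf4 in 5 of 18, Foxo3 in 3 and Sub1 in 3, with an adjusted p of up to 0.108, 0.124 and 0.143, and each of them without pESC-PGCLC replicate 2, Taf4 and Sub1 also without pESC replicate 1. Against ESCs and pESCs together, PGCs had 3 of the 7 higher (Taf7l, Taf4, Sub1) and none lower, where 25.3% of all genes were called higher, and Sub1 was lost after median centring and without PGC replicate 2. Taf7l, a germ cell relative of the TFIID subunit Taf7, had 0.300 to 0.719 TPM in stem cells, 66.9 and 62.8 TPM in ESC-PGCLCs, 31.6 and 37.2 TPM in pESC-PGCLCs and 47.8 and 58.7 TPM in PGCs. Its log2 change was 5.50 in ESC-PGCLCs and 4.48 in pESC-PGCLCs (SE 0.185 each). Taf4, the ubiquitous relative of Taf4b in TFIID, went from 2.44 to 2.94 TPM in ESCs to 10.1 and 11.3 TPM in ESC-PGCLCs, and from 2.41 to 3.20 TPM in pESCs to 6.17 and 7.04 TPM in pESC-PGCLCs. Sub1, a transcriptional coactivator, and Foxo3, a forkhead factor that holds primordial follicles at rest, also rose in both, by 3.38 and 1.46 on the log2 scale in ESC-PGCLCs.

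Sub1 was lower in pESC-PGCLCs than in ESC-PGCLCs, at -1.56 (SE 0.364, adjusted p = 0.0179, limma), and lower in PGCs than in ESC-PGCLCs, at -1.84 (SE 0.364, adjusted p = 0.00864). The first call was lost in 5 of 18 other settings, quantile normalization and each PGCLC replicate left out, with an adjusted p of up to 0.0986. The second was lost in 2, without ESC-PGCLC replicate 2 and with these groups alone (adjusted p = 0.151). Its levels there were 7441 and 8677 TPM in ESC-PGCLCs, 2635 and 2818 TPM in pESC-PGCLCs and 1488 and 3406 TPM in PGCs. Tbp, the TATA-binding subunit of TFIID, stayed between 8.78 and 15.1 TPM in all libraries. Stat3 and Dynll1 were not called in any comparison. From ESCs to ESC-PGCLCs both passed the adjusted p but not the fold, and both were lower. Dynll1 was at -0.96 (adjusted p = 0.0112, limma) and Stat3 at -0.69 (adjusted p = 0.0345). In PGCs against ESC-PGCLCs Dynll1 was higher, at 0.85 (adjusted p = 0.0296), also under 2-fold.

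Of 19 names of other oocyte products, 15 were read and 14 tested, and PGCs had 3 of these higher (Nlrp14, Ybx2, Tle6) and 2 lower (Ooep, Khdc3) than ESCs and pESCs together, where 25.3% of all genes were called higher and 8.06% lower. Of these calls Tle6 was lost in 3 of 18 other settings, after quantile normalization (adjusted p = 0.0699), after centring and without PGC replicate 2. Nlrp14, an oocyte protein of the NLR family, and Ybx2, an RNA-binding protein of germ cells, rose in both kinds of PGCLC, and Ooep and Khdc3, parts of the subcortical maternal complex, fell. Nlrp14 had at most 0.0921 TPM in stem cells and 1.84 to 2.92 TPM in the 6 germ cell libraries, with log2 changes of 1.66 in ESC-PGCLCs and 1.73 in pESC-PGCLCs (SE 0.201 each). Ybx2 had at most 0.181 TPM in stem cells and 1.34 to 2.91 TPM in germ cells. Ooep had 104 and 113 TPM in ESCs, 234 and 183 TPM in pESCs and 22.5 to 36.5 TPM in germ cells. Khdc3 had 9.88 to 16.6 TPM in stem cells and 0.0540 to 0.959 TPM in germ cells, so that these genes, like Zp3, were higher in the stem cells.

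Tle6, of the same maternal complex, was at 0.845 to 1.16 TPM in stem cells and ESC-PGCLCs and at 2.89 to 3.51 TPM in pESC-PGCLCs and PGCs. It was higher in pESC-PGCLCs than in ESC-PGCLCs by 1.07 (SE 0.175, adjusted p = 0.00378, limma) and in PGCs by 1.17 (SE 0.175, adjusted p = 0.00337), the same direction as Sohlh1. The first call was lost in 2 of 18 other settings, at 0.83 after quantile normalization and 0.79 after centring, and the second in 3, at 0.67 and 0.73 there and with an adjusted p of 0.0681 with these groups alone. Gonadal somatic and blood markers moved the same way, and their part was not tested. Bmp15, the partner of Gdf9, had at most 0.113 TPM in any library, and Astl was at 0 in all 10. The medians of the list were -0.01 and 0.10 in the differentiation of ESCs and pESCs, against 0.05 and 0.22 for all genes.

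**Figure D5:**
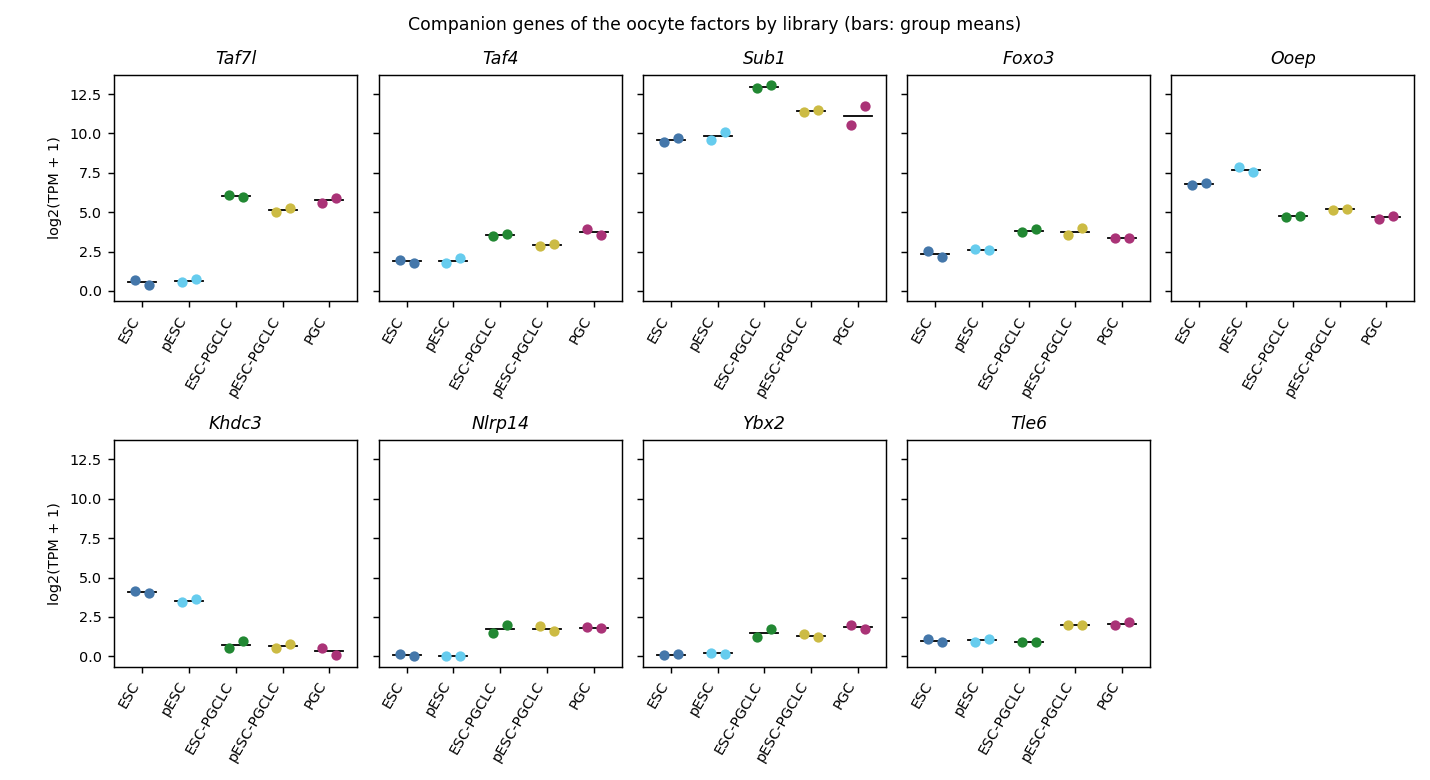
Level as log2(TPM + 1) of the 9 companion genes called in at least 1 comparison, with the 5 groups on the horizontal axis, a point for each library and a bar for the mean of a group. Taf7l shows the widest step from stem to germ cells, Ooep and Khdc3 step down, and Tle6 is highest in the pESC-PGCLC and PGC libraries.

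The genes whose pattern over the 10 libraries was most like that of a member were found by Pearson's r of log2(TPM + 1) among 16809 genes with a group mean of at least 1 TPM. The libraries share the split of stem from germ cells, so high values were common: 1870 genes reached 0.95 with Figla and 2388 with Taf4b. The closest to Figla were Hbb-bs (r = 0.999), Mfsd4b4 (0.998) and Hbb-y (0.998), 2 of them globin genes of the blood list. Hbb-bs had 25.5 and 29.1 TPM in ESC-PGCLCs, 87.0 and 72.5 TPM in pESC-PGCLCs, 74.9 and 84.5 TPM in PGCs and 0 in stem cells. Nearest to Sohlh2 were Gm4779, AC167229.1 and Tyrobp (0.996, 0.996 and 0.995), and to Taf4b Sfmbt1, Tmem65 and Wnk3 (0.999 each). Lhx8 was closest to Cdh5 (0.990), Ikzf1 (0.987) and Paqr9 (0.986). Sohlh1 had 65 genes at 0.95 or more, led by 4930474H06Rik (0.989), Fbxo4 (0.981) and Bcl2a1b (0.981). For Zp3 the first were Serpina3i (0.999), Hdac1 (0.996) and Aim2 (0.996). Among members, Figla and Sohlh2 were the most alike pair (0.987), and Lhx8 and Sohlh1 the least alike of the factors compared (0.614). Zp3 ran against each of these 5 factors, at -0.614 to -0.968.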

How the data were processed

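RNA of sorted or cultured cells was sequenced in 10 libraries of 5 groups, per the study's methods by Smart-seq2 from a fixed small number of cells, whereas the sample labels name an NEBNext kit. Clean reads were aligned to mm10 with Hisat2 and assigned to genes with Feature-counts; the submitters' processing notes also name Bowtie2, RSEM and DESeq2 with R 3.4.2. The authors deposited TPM for 36066 genes by symbol, read counts divided by length and scaled to a fixed total, without other normalization, and all columns were used. Since these are not counts, DESeq2, the study's test, was replaced by limma 3.58.1 (R 4.3.3) on log2(TPM + 1), with genes of at least 0.1 TPM in at least 2 libraries, 1 mean per group over all 10 libraries (5 residual and 2.81 prior degrees of freedom) and a variance trend.

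Reads were recovered as TPM times the exon length in GENCODE M21 (35861 genes with 1 length) over a unit per library. Ratios of pooled reads are scaled by the unit of each library, so that they compare levels, and have exact 95% intervals. Named genes are the members, up to 4 called genes of each companion list per comparison, the 3 genes most like a member by Pearson's r, and markers; the members, the lists of partners, products and markers and the comparisons were chosen with earlier results of these data known. Of the 10 members, 6 matched the RefSeq promoter table. Alternatives were a pseudocount of 0.1, no filter, the compared groups alone, quantile normalization, median centring on 9024 genes, the replicate number as a block, each replicate left out, voom on recovered reads and no minimum fold. The last reuses the main fit, so it can only add calls. Leaving out a library of a group outside a comparison keeps its fold change and can alter only its p-value. The fit was tested on simulated data. Python 3.11.15, pandas 2.3.3, scipy 1.17.1 and matplotlib 3.10.9 were used.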

Additional observations from a re-analysis of the deposited data

Results flagged for a closer look

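By the interaction test of limma, the change from stem cell to PGCLC differed by origin for 5 genes. The genes tested were 8 members, 7 transcription partners and 14 other oocyte products. Each of the 5 had an adjusted p under 0.05 and a value of at least 1 in size on the log2 scale. Sohlh1 had 1.21 (adjusted p = 0.0117), which equals its difference between the PGCLCs because ESC, pESC and ESC-PGCLC libraries had 0 reads. Figla had 1.02 (adjusted p = 0.0264), with the larger rise on the pESC side. Tle6 had 1.06 (adjusted p = 0.0188), with 2.89 and 3.03 TPM in pESC-PGCLCs against 0.885 and 0.875 TPM in ESC-PGCLCs. Taf7l had -1.02 (adjusted p = 0.0274) and Sub1 -1.81 (adjusted p = 0.0394), with the larger rise on the ESC side. Of 18 other settings, the call was lost in 2 for Sohlh1, 9 for Figla, 7 for Tle6, 8 for Taf7l and 10 for Sub1. Over all genes 15.5% were called in the direction of Sohlh1 and 3.53% in that of Taf7l, and the part of other cell types in these values was not tested.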

How the results depend on the processing

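The number of members called from stem cells to PGCLCs and for PGCs against stem cells stayed within 1.5 times under every setting run, with 4 to 6, 4 to 7 and 5 to 7 called, as did the numbers of members detected, and for PGCs against pESC-PGCLCs it stayed 0. For pESC-PGCLCs against ESC-PGCLCs, with 1 called, the number was 3 with a pseudocount of 0.1, 0 with the compared groups alone, 2 with voom and 3 without a minimum fold, and 1 to 2 with a replicate left out. For PGCs against ESC-PGCLCs, also with 1, it was 2, 0, 2 and 4 in that order, 0 after quantile normalization and 0 after median centring, and 0 to 2 with a replicate left out, the 0 without PGC replicate 1. For the interaction, with 2, it was 1 with a pseudocount of 0.1, 1 after quantile normalization, 1 after median centring and 1 with voom, and 1 to 3 with a replicate left out. For pESCs against ESCs it was 0 to 1 with a replicate left out. In such fits the lone library of a group is assumed to vary like the other groups.

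With the replicate number as a block, the 8 comparisons called 0, 1, 4, 5, 1, 0, 6 and 2 members, in the order pESC against ESC, pESC-PGCLC against ESC-PGCLC, both differentiations, PGC against ESC-PGCLC, against pESC-PGCLC and against stem cells, and the interaction, as without it. The numbers carry no pairing in the labels: the deviations of same-numbered libraries correlated at -0.0507 to 0.238 over 14838 genes, median 0.0301.

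A few small differences, none of them called, changed sign. Taf4b in pESCs against ESCs gave 0.065 after quantile normalization, 0.14 after centring and -0.34 to 0.024 with a replicate left out, and Sohlh2 there gave -0.12 to 0.24. Taf4b in PGCs against ESC-PGCLCs gave -0.080 after centring. With a replicate left out, PGCs against pESC-PGCLCs gave -0.26 to 0.082 for Figla and -0.44 to 0.12 for Sohlh1. In the interaction Sohlh2 gave -0.14 after quantile normalization and -0.28 after centring, and Taf4b -0.65 and -0.76 in that order (adjusted p = 0.104 and 0.0818) and -0.22 to 0.15 with a replicate left out. The causes were not tested. Depth limits Nobox, Gdf9, Zp1 and Zp2 most, at 10 reads or fewer a library.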
